A study of Homo sapiens with 6 samples.

Results

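Open chromatin was described around 10 genes of the YAP and TEAD circuit: the coactivator genes YAP1 and WWTR1, the factor genes TEAD1 and TEAD4, and the target genes CCN1, CCN2, ANKRD1, AMOTL2, LATS2 and WWC1. The genes were chosen by name from 19974 protein-coding genes of the RefSeq table on chromosomes 1 to 22 and X, and every peak that overlapped one of their intervals or lay within 100 kb of it was taken. This gave 346 of the 151534 regions found in either peak list, of which 306 were among the 122421 regions found in both. The cells were wild-type hTERT-RPE1, a human retinal pigment epithelial line immortalised with telomerase, with no treatment named in the labels. ATAC-seq marks DNA that the transposase Tn5 can reach in nuclei, and was done on 6 libraries, 3 titled R1 and 3 titled R2. The labels do not say what separates R1 from R2. One merged peak list stands for each set, so no spread between libraries could be computed and no difference below was tested.

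YAP1 protein and its paralogue TAZ, the product of WWTR1, carry no DNA-binding domain and act on genes through the TEAD factors, which recognise the core letters GGAATG. Kinases of the Hippo pathway, LATS1 and LATS2 last among them, phosphorylate YAP1 and TAZ and hold them out of the nucleus. Many of the sites used by YAP1 and TEAD lie far from promoters, often beside sites of AP-1, and several of their targets, such as LATS2 and AMOTL2, restrain YAP1 in turn.

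The promoter letters are shown for the 4 members that hold a TEAD core before the start, because these stretches lie inside the open regions described next. Each run gives the 250 bases before a RefSeq start, read 5′ to 3′ on the strand of the gene, from RefSeq on GRCh38.p14. Capitals mark GGAATG, its reverse complement CATTCC, and TGANTCA, a loose form of the AP-1 core that allows any letter at N. The runs are CCN2 at chr6:131951373-131951622 on the minus strand, ANKRD1 at chr10:90921088-90921337 on the minus strand, AMOTL2 at chr3:134374448-134374697 on the minus strand and YAP1 at chr11:102110197-102110446 on the plus strand.
CCN2: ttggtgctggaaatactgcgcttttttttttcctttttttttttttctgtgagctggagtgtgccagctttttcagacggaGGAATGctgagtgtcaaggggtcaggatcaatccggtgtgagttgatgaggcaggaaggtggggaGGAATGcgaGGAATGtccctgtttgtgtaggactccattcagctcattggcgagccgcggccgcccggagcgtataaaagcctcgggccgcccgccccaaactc
ANKRD1: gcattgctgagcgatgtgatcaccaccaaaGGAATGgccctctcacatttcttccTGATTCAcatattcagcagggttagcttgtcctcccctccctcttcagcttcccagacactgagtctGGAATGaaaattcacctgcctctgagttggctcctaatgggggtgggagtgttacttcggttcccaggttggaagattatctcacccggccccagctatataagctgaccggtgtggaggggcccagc
AMOTL2: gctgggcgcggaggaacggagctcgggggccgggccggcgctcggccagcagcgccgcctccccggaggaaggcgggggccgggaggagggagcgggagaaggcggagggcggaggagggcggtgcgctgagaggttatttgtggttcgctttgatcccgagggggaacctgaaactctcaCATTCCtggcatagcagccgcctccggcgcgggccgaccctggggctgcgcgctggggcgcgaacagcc
YAP1: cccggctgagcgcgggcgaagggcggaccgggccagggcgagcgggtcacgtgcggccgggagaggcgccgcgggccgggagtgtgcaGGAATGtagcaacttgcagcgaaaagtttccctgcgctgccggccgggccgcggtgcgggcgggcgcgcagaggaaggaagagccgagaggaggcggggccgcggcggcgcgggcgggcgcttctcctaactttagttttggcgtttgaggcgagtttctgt

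CCN2 held GGAATG 3 times, with first bases 169, 104 and 95 bases before the start, the latter pair separated by 3 letters. ANKRD1 held it 2 times, at 220 and 128 bases before the start, with TGATTCA between them at 195. The centre letter of TGATTCA is T, whereas the usual AP-1 core has C or G there. AMOTL2 had a single CATTCC at 69 bases before the inner of its RefSeq starts, and YAP1 a single GGAATG at 162. The promoter table held 7 of the 10 members in 9 windows of 300 bases, from 250 before to 50 after a start. LATS2 held GGAATG 10 bases after its start, while the WWC1 window, both WWTR1 windows and the window at the outer AMOTL2 start held no GGAATG or CATTCC. The TEAD core was thus in 5 of the 9 windows. CCN1, TEAD1 and TEAD4 were not among the matched genes. Of 22132 promoter windows of protein-coding genes, 12.2% held the TEAD core on either strand at least 1 time, 1.06% at least 2 times and 0.104%, or 23 windows, at least 3 times. Among the 13095 windows that lay wholly inside a region of both lists, these shares were 10.8%, 0.748% and 0.0458%. TGANTCA, which equals its own reverse complement, was found in 6.15% of the windows and overlapped no TEAD core in ANKRD1. A match gives the letters only and does not show that a factor was bound.

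All 10 members had a region in both lists within 1000 bp of a start, against 73.0% of protein-coding genes. For CCN1, TEAD1 and TEAD4, whose strand was not in the tables used, either end of the interval was taken as a possible start. Where a gene had several regions at its starts, the one with the most fragments over both lists stood for it, for members and all genes alike, so a gene's fragments are the highest of its starts. The fold of each peak is the authors' own value and was used only within its list. The number of fragments over the summit and the local background were recovered from that fold and its p-value. Start regions of the members had a median of 330 fragments in R1 and 352.5 in R2, beside 300 and 314 for the start regions of 14587 genes. Their median background was 57.3 and 61.0 fragments, beside 36.9 and 38.1. Their median fold was 5.04 and 5.60, beside 7.35 and 7.40. By these medians the members' starts lay above all genes in fragments and in background, and below them in fold. Not every member did. TEAD1 and WWC1 lay below the median gene in fragments in both lists, and LATS2 in fragments and background in R1. ANKRD1 and LATS2 lay above the median gene in fold in both lists.

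**Figure D1:**
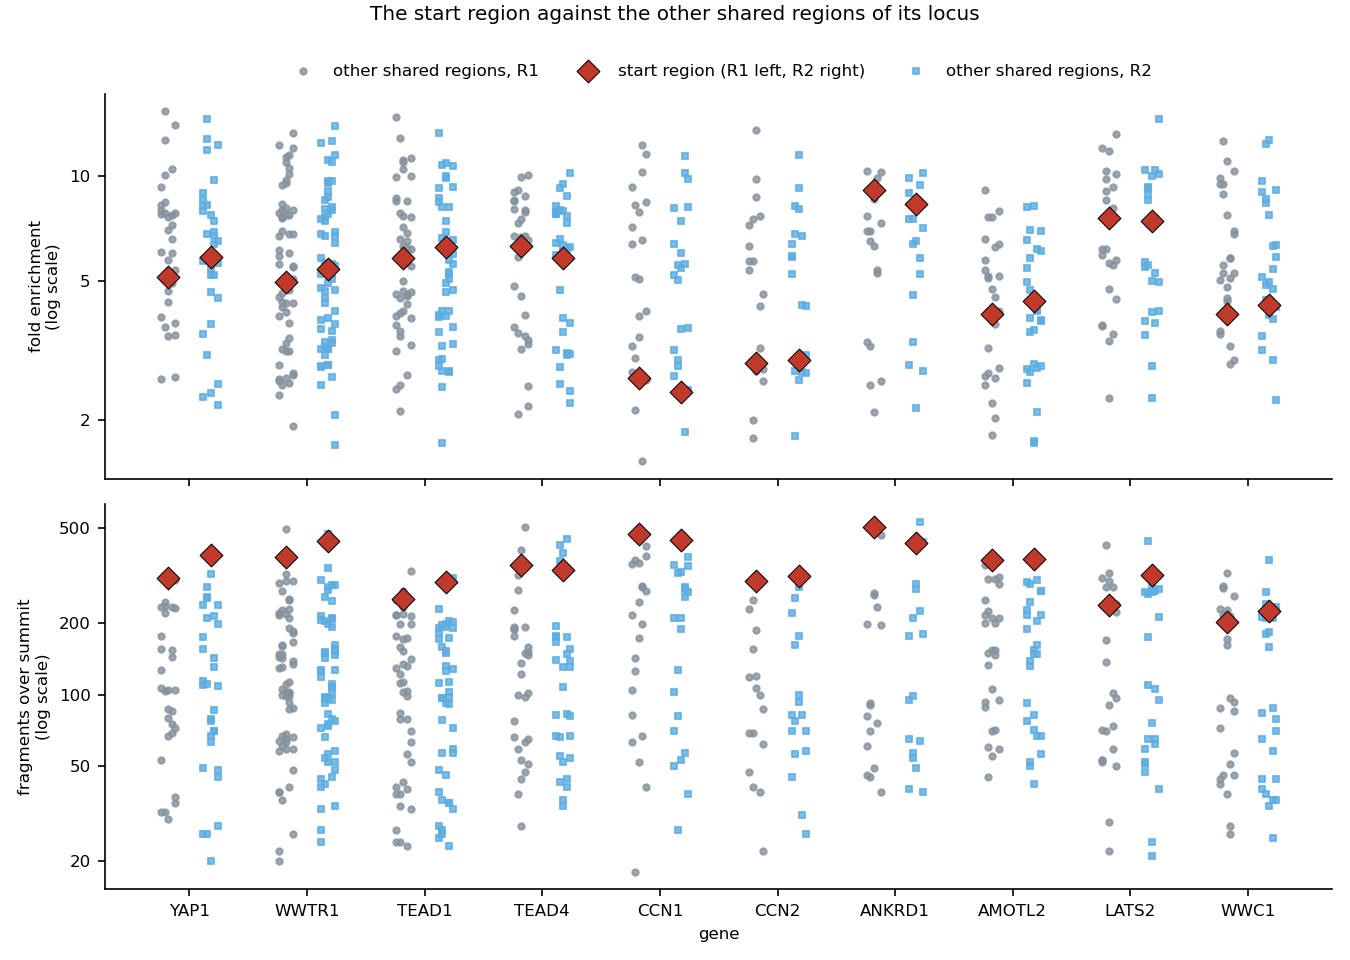
Fold (upper panel) and fragments over the summit (lower panel), both on log axes, for every shared region around each member, with R1 as grey circles, R2 as blue squares and the start region as red diamonds. The CCN1 start region has 473 fragments in R1, the most of its locus, but a fold of 2.63, which 18 of its 21 other shared regions exceed.

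Among the coactivators, the YAP1 start region at chr11:102109582-102110657 had a fold of 5.13 in R1 with 310 fragments over a background of 59.6, and 5.84 in R2 with 385 over 65.0. A neighbouring region at chr11:102111011-102112641 lay inside the gene with 296 and 320 fragments. For WWTR1 the region at chr3:149656874-149659092 had 379 fragments and a fold of 4.95 in R1 and 444 fragments and 5.40 in R2. The region at the further upstream WWTR1 start, chr3:149702793-149703677, had fewer fragments, 111 and 97, but a fold of 11.3 and 11.1 over backgrounds of 8.89 and 7.84. These WWTR1 starts therefore differed in kind. One had many fragments on a high background, the other fewer on a background near the lowest of each list (7.93 in R1 and 7.79 in R2). The WWTR1 interval runs further upstream, to 149724788, and no shared region lay within 1000 bp of that end.

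Of the DNA-binding factors, TEAD1 had its region at chr11:12673659-12674835, with a fold of 5.80 and 251 fragments in R1 and 6.26 and 296 in R2. The other end of the TEAD1 interval had none. TEAD4 had a wider region of 2752 bp at chr12:2958315-2961066, with a fold of 6.28 and 350 fragments in R1 and 5.80 and 335 in R2. A further region 492 bp beyond its opposite end, chr12:3041168-3042132, had folds of 8.49 and 7.78 with 189 and 174 fragments. TEAD1 and TEAD4 thus stood near the middle of each list by fold.

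The genes of the secreted matrix proteins CCN1 and CCN2, textbook YAP1 targets, had the lowest folds of the 10 start regions that stand for the members. At CCN1, chr1:85579800-85581376 had 473 fragments over a background of 179.3 in R1, a fold of 2.63, and 447 over 185.9 in R2, a fold of 2.40. Only 10 peaks of R1 and 11 of R2 had a higher background, and among the start regions of 14587 genes CCN1 ranked 5 from the top in background in each list. By fold the same region ranked 376 from the lowest in R1 and 224 in R2. Its fragments exceeded those of 90.9% and 87.9% of the genes' start regions, so it combined a high count with a low fold. CCN2 had 301 fragments over 103.0 in R1 and 314 over 105.5 in R2 at chr6:131951110-131951827, folds of 2.90 and 2.96. Its background ranked 219 and 186 from the top, and a second region, chr6:131948830-131950890, covered much of the short gene with folds of 2.75 and 2.59.

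ANKRD1, which codes for a nuclear ankyrin repeat protein known from muscle, had the highest fold of the 10 start regions that stand for the members, although the further upstream WWTR1 start was higher. Its region at chr10:90919895-90921912 had 506 fragments and a fold of 9.09 in R1 and 435 fragments and 8.28 in R2. Fragments there were higher than in 99.5% of all R1 peaks. CCN1 and ANKRD1 were thus near each other in fragments and apart in background, which was 54.8 and 51.6 at ANKRD1.

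**Figure D2:**
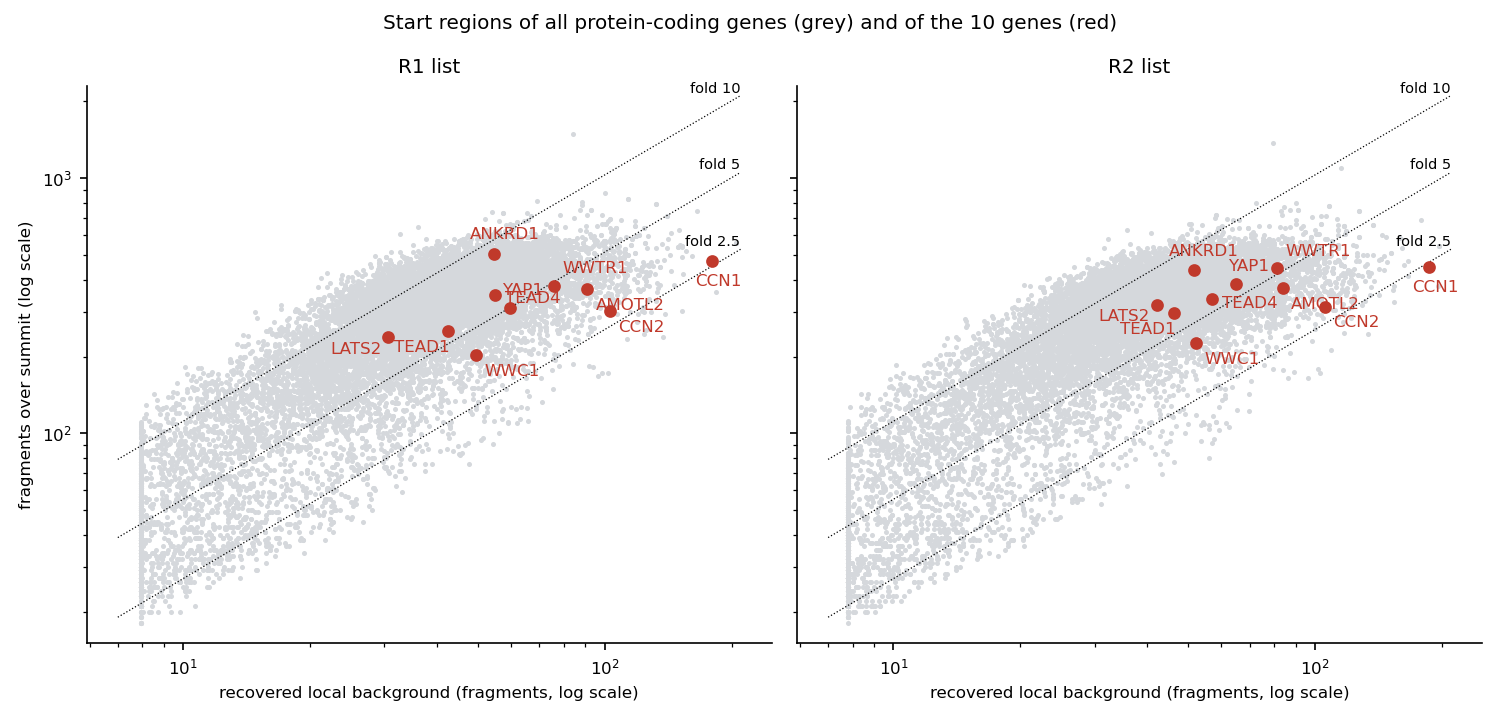
Fragments over the summit against local background at the start region of each member (red) and of 14587 protein-coding genes (grey), for R1 and R2 on log axes, with dotted lines of equal fold. CCN1 lies furthest right of the members, with a background of 179.3 in R1 and 185.9 in R2, and CCN2 next, while ANKRD1 has 506 and 435 fragments on 54.8 and 51.6.

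The last group are targets that also act back on the pathway. AMOTL2, an angiomotin family protein that can hold YAP1 in the cytoplasm, had 368 fragments and a fold of 4.01 in R1 and 370 and 4.37 in R2, in a region of 2396 bp at chr3:134372937-134375332 near both of its starts. The kinase gene LATS2 had folds of 7.54 and 7.41 at chr13:21060013-21062079, with 238 fragments in R1 and 319 in R2. R1 had 2 peaks there, with 111 and 238 fragments, and R2 a single peak. WWC1, which codes for the LATS activator KIBRA, had 202 fragments and a fold of 4.02 in R1 and 225 and 4.25 in R2 at chr5:168291260-168293051, again as 2 peaks in R1 and 1 in R2. Of the 10 regions that stand for the members WWC1 had the fewest fragments in both lists, although the second regions of WWTR1 and TEAD4 had fewer still.

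Within most loci, few other regions exceeded the start region in fragments and many exceeded it in fold. YAP1, WWTR1, TEAD4, CCN1 and CCN2 had several start regions, and the one with the most fragments was picked. That choice favours it in fragments over its other start regions, but not in fold. No other shared region of the CCN1 or AMOTL2 loci had more fragments in either list, out of 21 and 27 others. At YAP1, 1 of 31 other regions did in R1 and 0 in R2, and at WWTR1 1 of 59 did in each list. By fold, however, 21 of 31 others at YAP1 exceeded the start in R1 and 17 in R2, and 32 and 28 of 59 did at WWTR1. ANKRD1 had the fewest, 3 of 17 in R1 and 5 in R2. CCN2 had 13 of 18 above its start by fold in each list and 1 by fragments. For TEAD1, 3 of 44 others were above by fragments in R1 and 1 in R2, and for TEAD4 3 and 4 of 31. LATS2 had 7 of 23 above by fragments in R1, where its start was split into 2 peaks, and 1 in R2. WWC1, also split in R1, had 8 of 25 in R1, the most, and 4 in R2. Whether the split bears on these counts was not tested. Fragments and fold thus ordered the regions of a locus differently, since the background entered the fold.

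By the medians, open chromatin was also dense next to the starts, a measure chosen after seeing the data. Within 10 kb on each side, the members had a median of 3.5 shared regions, beside 2 for genes with a start region, and these covered a median of 18.5% of the 20 kb, beside 12.1%. CCN1 had 28.2% covered, more than 98.7% of those genes, ANKRD1 26.7% and CCN2 25.1%. WWTR1 was lowest with 11.1%, below the 12.1% of the median gene, followed by TEAD1 with 12.5%. By count, WWTR1 and TEAD4 had 1 shared region each, below the median of 2.

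Away from the starts, the members had 175 distal regions in both lists, outside the gene, more than 1000 bp from its ends and at most 100 kb away. Each distal region was counted for a single member only. WWTR1 had 25, TEAD4 24, AMOTL2 23, CCN1 20, YAP1 18, CCN2 and ANKRD1 16 each, LATS2 15, TEAD1 11 and WWC1 7. The median over members was 17, beside 13 over all protein-coding genes. Of the 10 members, 8 were above that median, as were 46.9% of all genes, and TEAD1 and WWC1 were below it. WWTR1 had more distal regions than 93.6% of genes, TEAD4 than 91.8% and AMOTL2 than 89.6%, whereas WWC1 had more than 21.4%. The counts rest on pooled lists, so neighbours in this order were not separated by any measured error.

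**Figure D3:**
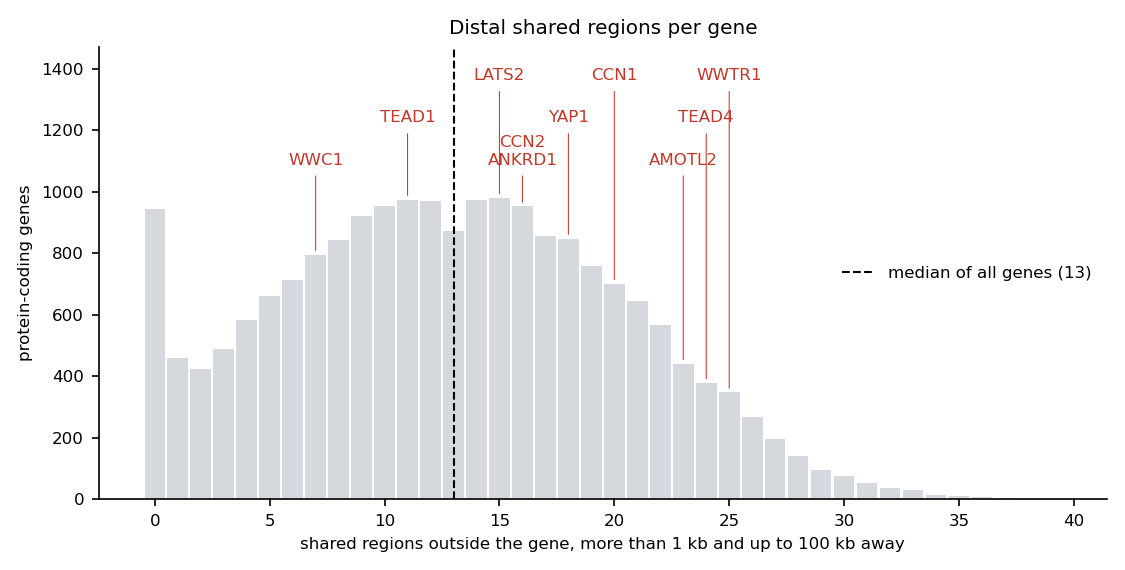
Number of protein-coding genes (bars) by their number of distal shared regions, with the 10 members marked and the median of all genes, 13, as a dashed line. WWC1 with 7 and TEAD1 with 11 lie below the median, and WWTR1 with 25 lies furthest above it.

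Of the 175 distal regions, 17 lay within 1000 bp of an end of another protein-coding gene and 158 did not. Without the former the medians were 16 for the members and 10 for all genes. By distance, 18 were within 10 kb of the gene, 78 at 10 to 50 kb and 79 farther. For the 7 members with a known strand, 46 were upstream and 74 downstream. Distal regions had a median of 107 fragments in R1 and 105 in R2 and folds of 6.15 and 5.94. All shared regions had 86 and 80 fragments and folds of 5.72 and 5.52. Distal member regions in the highest 10% of both lists by fold were 14 of 175, or 8.0%, beside 9.06% of all shared regions. By fragments they were 28, or 16.0%, beside 12296 of the 122421 shared regions. These cuts were chosen after seeing the data. The distal share strong by fold was thus close to that of the whole set and the distal share strong by fragments was above it, with no test made of either. The whole set also includes start and gene-body regions. Of 115 gene-body regions of the members, 4 or 3.48% passed by fold and 11 or 9.57% by fragments. Of all 306 member regions, 19 or 6.21% passed by fold and 49 or 16.0% by fragments. Of the 28 distal regions strong by fragments, 7 were around CCN1, and some lay at ends of other genes.

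The longer genes also held regions inside their intervals. Counting all that overlapped the gene, WWTR1 had 35 over 207554 bp, TEAD1 34 over 270317 bp, WWC1 19 over 180659 bp, YAP1 14 over 122978 bp, LATS2 9 over 88551 bp, TEAD4 7 over 81280 bp and AMOTL2 5. The 7 members of at least 10000 bp had a median of 1.14 shared regions per 10 kb of gene, beside 0.692 for 14316 genes of that length. As a part of all shared regions of the locus, these were 34 of 45 at TEAD1, 19 of 26 at WWC1 and 35 of 60 at WWTR1, but 14 of 32 at YAP1, 9 of 24 at LATS2, 7 of 32 at TEAD4 and 5 of 28 at AMOTL2. The short genes CCN1, CCN2 and ANKRD1 had nearly all of theirs outside. Over gene and flanks together, the members had a median of 9.74 shared regions per 100 kb, beside 6.65 over all genes, from 6.83 at WWC1 to 14.7 at WWTR1.

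**Figure D4:**
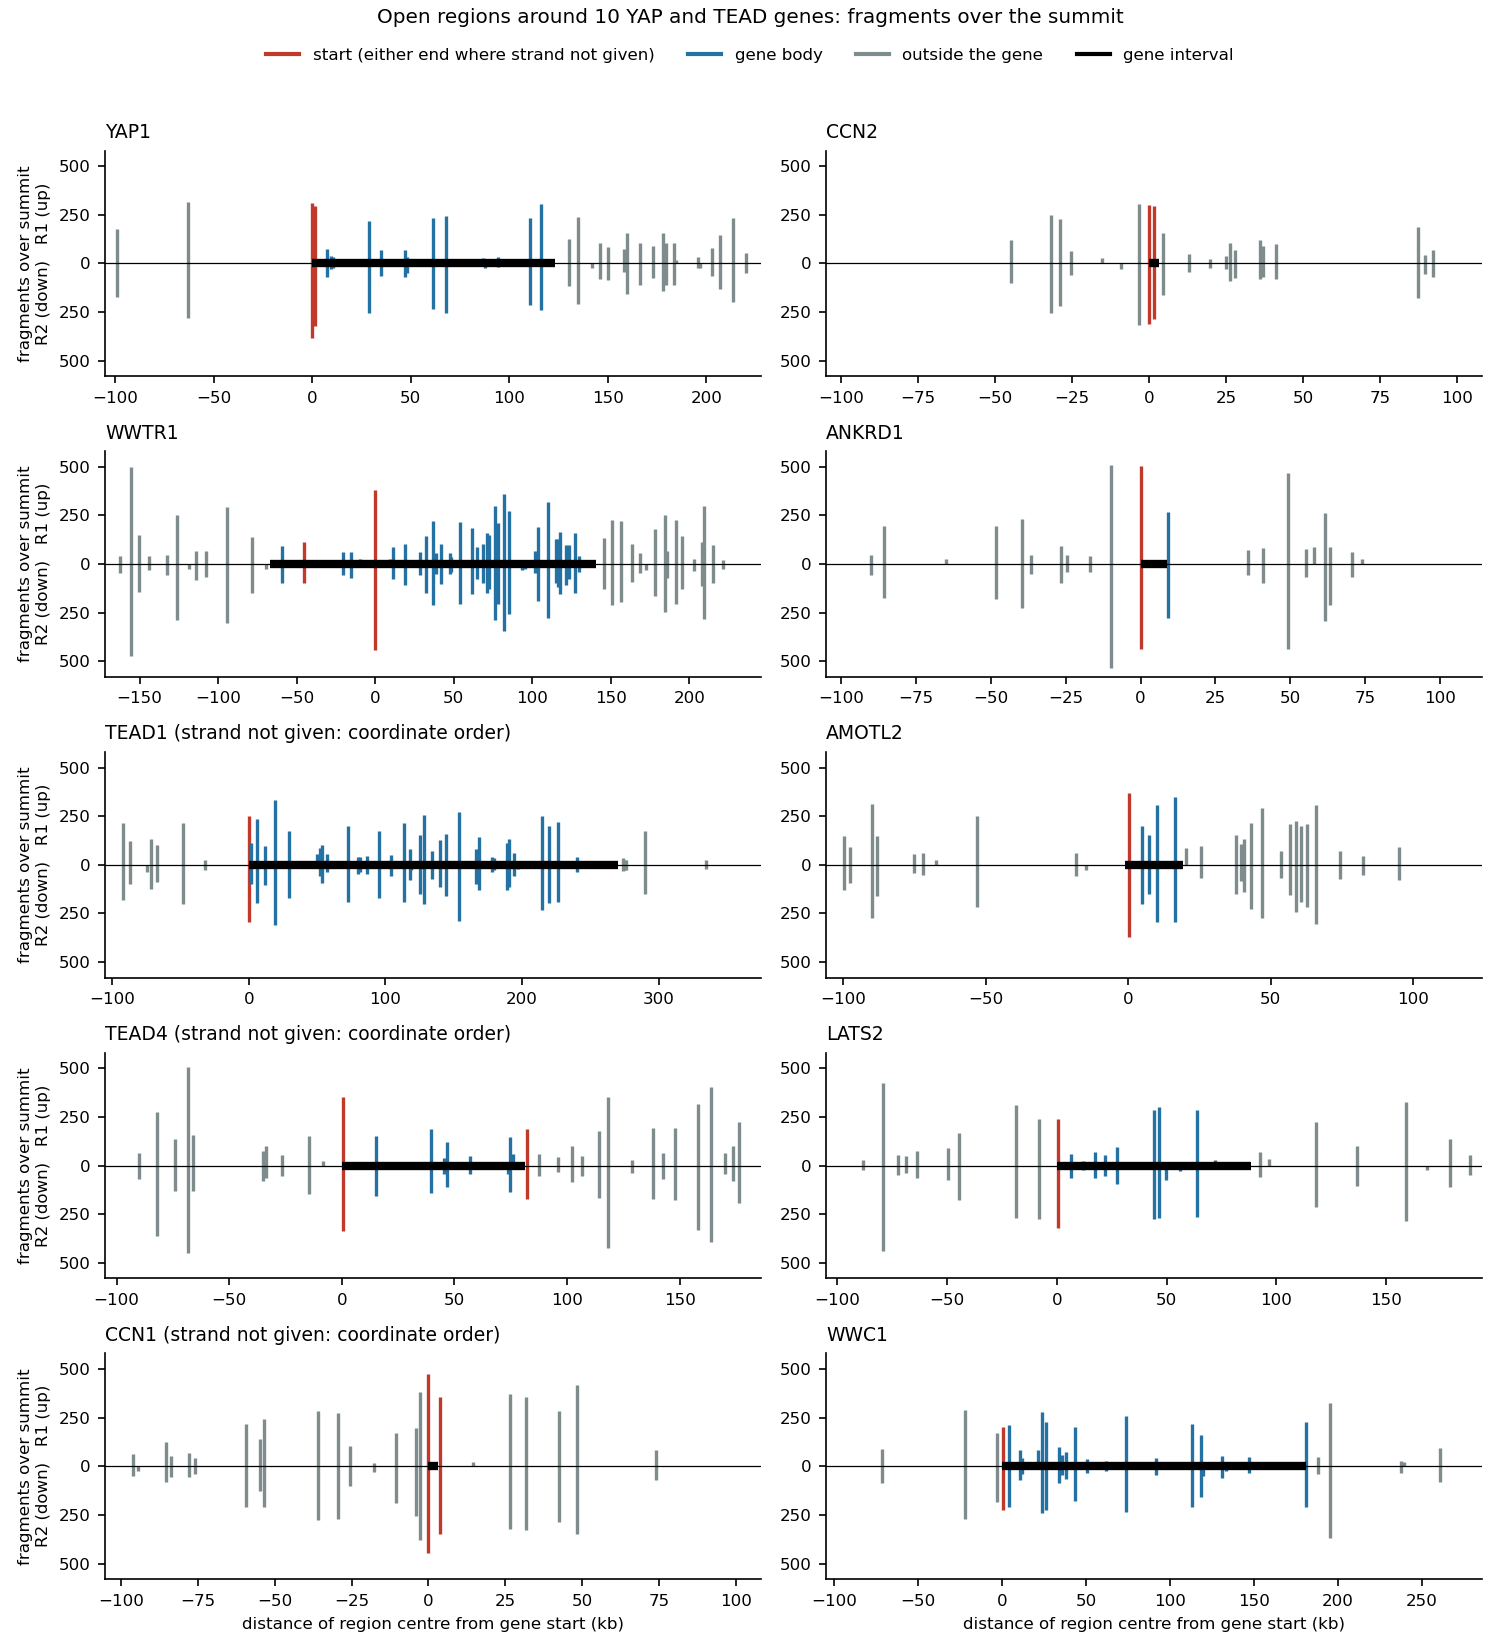
Fragments over the summit of every region around each of the 10 members, R1 upward and R2 downward, by distance of the region's centre from the start used (kb), with the gene interval as a black bar and colours for start, gene-body and outside regions. WWTR1 and TEAD1 have most regions inside the gene, CCN1, CCN2 and AMOTL2 outside it, and no region of both lists lies in the 61405 bp before the YAP1 start region.

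Around YAP1, at chr11:102110447-102233424 on the plus strand, 16 of the 18 distal regions were downstream and 2 upstream. No shared region lay in the 61405 bp before the start region, from 102048177 to 102109581, the longest such gap at any member. On its far side was the region with the highest R1 fold at any member, chr11:102046939-102048176, 62271 bp upstream, with folds of 15.3 and 14.5 and 317 and 283 fragments. It sits at an end of CFAP300, so it is a gene-end region of a neighbour. Inside YAP1, chr11:102177867-102178925 had folds of 12.7 and 12.8. The nearest distal region was 7179 bp downstream, with folds of 3.94 and 3.52.

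WWTR1, at chr3:149517235-149724788 on the minus strand, had 10 distal regions upstream and 15 downstream, and 60 shared regions in all, the most of any member. The strongest distal region by fold, chr3:149736063-149736997, was 11275 bp upstream, with folds of 13.2 and 13.8 and 138 and 147 fragments, and lay at no other protein-coding gene's end. Inside the gene and away from its starts, chr3:149717195-149717860 had the best mean percentile, with folds of 10.5 and 10.9, while in R1 chr3:149547489-149548990 had 10.9. A dense stretch of 28533 bp in the gene, chr3:149527740-149556272, held 10 regions, which covered 27.8% of it. By fragments the highest region of the locus was at the end of RNF13, 87480 bp upstream, with 497 and 471.

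TEAD1, at chr11:12674421-12944737, had its strongest distal region at the far edge of the window, 91814 bp away at chr11:12581783-12582607, with folds of 14.8 and 13.3 and 216 and 182 fragments. Inside the gene, chr11:12746453-12747277 had folds of 11.2 and 10.6. Its nearest distal region, 2867 bp away, had 33 fragments in each list. TEAD4, at chr12:2959397-3040676, had 24 distal regions, 13 of them over 50 kb away and 3 at ends of other genes. The highest by fold, chr12:3122710-3124164, lay 82034 bp away inside TSPAN9 with folds of 9.90 and 9.44 and 405 and 394 fragments. The highest by fragments, 504 and 452, was chr12:2890155-2891746 at the ends of RHNO1 and TULP3. No shared region of the TEAD4 locus was in the highest 10% of both lists by fold, and 6 were by fragments, whereas TEAD1 had 4 and 2.

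The high background of CCN1, at chr1:85580761-85583950, was also seen at the regions next to it. The background is a local value, so regions this close may draw on the same fragments and are not separate readings. The nearest distal region, chr1:85577098-85578788, 1973 bp away at an end of DDAH1, had 382 and 377 fragments over backgrounds of 146.1 and 154.1. The region 58 bp beyond the opposite end, chr1:85584008-85585216, had 354 and 349 over 128.8 and 130.2. All had folds between 2.40 and 2.73. Farther out the background was lower: chr1:85622721-85623789, 38771 bp away, had folds of 12.2 and 11.4 with 285 and 284 fragments over 22.4 and 24.0. Of 22 shared regions around CCN1, 9 were in the highest 10% of both lists by fragments, the most of any member, and 1 was by fold.

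CCN2, at chr6:131948176-131951372 on the minus strand, had 5 distal regions upstream and 11 downstream, none at another protein-coding gene's end. Its nearest, chr6:131954271-131955152, 2899 bp upstream, had 306 and 316 fragments, above the start region itself, with folds of 4.24 and 4.27. The highest by fold, chr6:131995674-131996535, was 44302 bp upstream with folds of 13.5 and 11.5 and only 120 and 100 fragments over the lowest background. Downstream, the gap from 131864509 to 131909920 held no shared region, and the next 29037 bp toward the gene, chr6:131909921-131938957, held 8. The nearest region of CCN2 thus had more fragments and a lower fold than the one 44302 bp away.

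ANKRD1, at chr10:90912096-90921087 on the minus strand, had 9 distal regions upstream and 7 downstream. Its nearest, chr10:90929977-90931911, 8890 bp upstream, had 511 fragments in R1 and 534 in R2, the most at any region around the 10 members, with folds of 5.37 and 5.80. The distal region with the best mean percentile of fold, at the end of RPP30, chr10:90871157-90872798, lay 39298 bp downstream, with folds of 10.2 in both lists and 468 and 439 fragments. A further region, chr10:90910869-90913302, covered the 3′ part of the gene with 266 and 278 fragments.

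AMOTL2, at chr3:134355345-134375417 on the minus strand, had 8 distal regions upstream and 15 downstream, none at another protein-coding gene's end. The densest 30 kb at any member was downstream of it, chr3:134308145-134337158, where 11 regions covered 30.4% of 29014 bp. Their fragments ran from 71 to 306 in R1 and 67 to 304 in R2, with median folds of 2.81 and 2.84 and median backgrounds of 53.7 and 52.9. These backgrounds were above the medians of the lists, 11.6 and 11.5. The distal region with the best mean percentile of fold, chr3:134279114-134280064, was 75281 bp downstream, with folds of 9.13 and 8.11 and 89 and 77 fragments. In R2 another, chr3:134299268-134300687, had a slightly higher fold of 8.19.

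LATS2, at chr13:20973036-21061586 on the minus strand, had its strongest distal region 7878 bp upstream, chr13:21069464-21070228, with folds of 13.2 and 14.6 and 240 and 277 fragments. Inside the gene, chr13:20997327-20998322 had folds of 9.78 and 9.24. Of its 15 distal regions, 3 lay at ends of XPO4 or SAP18, and the most fragments of the locus, 425 and 441, were at SAP18. WWC1, at chr5:168291645-168472303 on the plus strand, had 7 distal regions, 2 of them at ends of RARS1 and FBLL1. The distal region with the best mean percentile of fold, chr5:168268867-168270394, was 21251 bp upstream with folds of 12.6 and 12.3 and 287 and 269 fragments. The region at the RARS1 end, chr5:168486096-168487335, had 11.03 in R1 and 12.64 in R2, the highest R2 fold of the WWC1 locus. At the far end of WWC1, chr5:168471661-168473014 had folds of 9.84 and 9.0, more than at its start.

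Regions of the members were mostly in both lists, 306 of 346 or 88.4% (95% Wilson interval 84.6 to 91.4, for counting error only, with regions of a locus not independent), beside 80.8% of all regions. The summits of R1 and R2 were a median of 35.5 bp apart. Some described regions had wider distances, with 900 bp at the AMOTL2 start and 778 bp at the nearest distal region of ANKRD1. At the start regions that stand for WWTR1 and TEAD1 they were 436 and 309 bp apart. In such regions the fragments of R1 and R2 were read at different positions. R1 alone had 20 regions and R2 alone 20. Those of R1 alone had folds from 1.53 to 3.25 and a median of 26.5 fragments, and those of R2 alone had folds from 1.97 to 3.18 and a median of 25.5. All of these unshared regions were under the median fold of their list, 5.04 in R1 and 5.12 in R2.

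Beyond the 10 members, 38 of 39 further genes of the pathway had a start region in both lists, beside 73.0% of all protein-coding genes. All 17 kinases and adaptors did, although FRMD6 had only 29 fragments in R1 and 23 in R2 there, on a background near the lowest. Their median was 14 distal regions. TAOK2 with 22, TAOK1 with 21 and PTPN14 with 18 had the most. Of 6 TEAD paralogues and partners 5 did, with VGLL4 at 20, TEAD3 at 18 and TEAD2 at 16 distal regions, and VGLL1 had a start region in neither list. The 16 further targets all had one, with a median of 18 distal regions, and 13 of them were above the median gene. NUAK2 had 26, GADD45A 23 and ASAP1 21. In all, 25 of the 39 were above the median gene, beside 46.9% of all genes and 8 of the 10 members.

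Of 10 retinal pigment epithelium markers, 8 had a start region in both lists, near the 73.0% of all protein-coding genes, and RPE65 and TYR did not. Of 7 markers of other cell types, COL1A1, COL1A2, PDGFRB and RBFOX3 had one, and the endothelial genes CDH5 and PECAM1 and the blood gene PTPRC did not. These counts do not tell the cell type apart, and an open start does not show that a gene was transcribed. R1 held 142865 peaks and R2 134351 on the chromosomes used, each with a median of 72 fragments over the summit, while no total of reads per library was used here.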

How the data were processed

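ATAC-seq peak lists of wild-type hTERT-RPE1 cells were used, 1 for the 3 libraries titled R1 and 1 for the 3 titled R2. Coordinates are on hg38, as the submitters' processing notes name it. Which aligner and caller were used, and whether reads were shifted for Tn5, is not given in the sources used here. For each peak the authors deposited the summit offset, a fold (the ratio to background), and p-value and q-value as −log10. How the lists were merged is not stated, and no value of single libraries was used.

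Peaks on chromosomes 1 to 22 and X were joined where R1 and R2 overlapped by at least 1 bp, and a region was shared when it held at least 1 peak of each list. Where a list had several peaks in a region, the one with the highest fold gave its values. Fragments over the summit and background were recovered from the relation that 1 is added to both before their ratio gives the fold, with Poisson p-values. All p-values were matched within 0.001 on the −log10 scale, but no source states this relation. Gene intervals, starts and promoter letters came from RefSeq tables of GRCh38.p14, and 15812 protein-coding genes had an entry with a strand. On simulated data, joining and counting made 0 errors over 300 genes and the recovery was right for 100% of 20000 peaks. The tools were matplotlib 3.10.9, scipy 1.17.1, pandas 2.3.3, numpy 2.4.6 and Python 3.11.15.

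The named regions are, for each member, the start region, the distal and gene-body shared regions with the best mean percentile of fold, and the nearest and farthest distal ones. Up to 3 further pathway genes per group with the most distal regions, and those with a start region in neither list, were named, and other genes only where their end lies at a named region. Regions named for their fragments, gaps and dense stretches were chosen after their values were seen. Members and gene lists were chosen with earlier results of these data known. With pooled lists there is no replicate spread, so no test was made. Alternatives covered q-values, fold, definitions of sharing, single lists and windows.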

Additional observations from a re-analysis of the deposited data

How the results depend on the processing

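Across stricter q-values, other definitions of sharing and each list alone or either list, the distal count stayed between 147 and 196, beside 175. With only peaks of at least the median fold of each list, it was 104, and all shared regions were 163 in place of 306. At that setting 6 members kept a start region in both lists, beside 56.9% of all genes, with CCN1, CCN2, AMOTL2 and WWC1 lost. WWTR1 was kept only through its further upstream start. The region that stands for WWTR1 had an R1 fold of 4.95, under the R1 median of 5.04. Windows change the count by construction: 50 kb gave 96 distal regions, 200 kb gave 305, and counting every region away from the start gave 291. The number of members above the median gene was 8 in all settings except 200 kb, with 7, and all regions away from the start, with 10. With overlap of at least 50% of each peak, 9 members had a start region in both lists, beside 68.9% of all genes. With summits at most 150 bp apart 8 did, beside 59.6%, and with either end of every interval as a start 9 did, beside 74.1%. Of the 39 further pathway genes, 37 did with a −log10 q of at least 10, 28 under the summit rule and 27 at the median fold. With a start window of 500 bp 34 did, beside 70.5% of all genes. With the peaks of R1 alone 37 had a start region, beside 74.4%, since a joined region can reach a start through its R2 peak only. The share of regions in both lists was 92.4% with a −log10 q of at least 10, 84.4% where the overlap had to cover at least 50% of each peak, and 79.2% with summits at most 150 bp apart. No paired analysis was possible because each set is 1 merged list without values of single libraries, and for the same reason no library could be left out. Regions in 1 list had medians of 26.5 and 25.5 fragments, and the part of depth in this was not tested.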
